A study of Homo sapiens with 12 samples.

Results

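The translation of arginine-fed RKO cells was described from 6 libraries, 3 of ribosome footprints and 3 of RNA, out of the 12 in the study. The members are the 19686 transcripts listed in both the footprint and the RNA count table, and the table of footprints lists 19849 in all. For each transcript the counts of the 3 fed footprint libraries were set against those of the 3 fed RNA libraries, each scaled to CPM, the counts a library of standard size would hold, within its own assay. Of the 19686 transcripts, 13672 had enough counts in at least 1 assay to be tested, and 10146 had enough in both assays.

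RKO is an established human colon carcinoma line, and the labels call the cells epithelial, cancer and wild type (WT). All cells grew in arginine-null DMEM with dialyzed serum, to which arginine was added back. The fed group received 400 uM, and a starved group received 12.5 uM, each for 24 hours. Every group had 3 libraries per assay, numbered 1 to 3, and the labels do not state whether these were separate cultures, so the p-values below measure the spread between libraries, which may be technical. The starved libraries are used only at the end, as separate libraries in which the fed pattern could be looked at again.

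Ribosome profiling sequences the short RNA fragments that a translating ribosome shields from nuclease, so the footprints on a transcript count the ribosomes sitting on it. RNA-seq of the same cells counts the transcript itself. The ratio of footprint to RNA CPM, often called translational efficiency, is a measure of how densely ribosomes load a transcript relative to the average of the cell. It rises when ribosomes start more often and also when they move more slowly, and it carries no information on the absolute rate of protein synthesis. Messages are known to differ widely in this ratio, through features such as structure near the cap, upstream open reading frames, the start codon context and binding proteins.

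Total counts in the fed RNA libraries were 7967215, 4670881 and 6936609, and in the fed footprint libraries 4364383, 2063952 and 2118467. The deposited tables name Ensembl transcripts and pair them with no gene symbol, and a search of the available gene tables for the 19849 identifiers found 0. For that reason gene groups could not be followed, the RKO label could not be checked against epithelial markers, and no sequence is printed. Transcript lengths were not used either. A ratio compares a transcript with itself in the other assay, but length cancels only where both assays count the same region. Whether they do is not given, so an effect of length on the ratio was not tested. Ranks by CPM favour long transcripts in both assays. The labels give the molecule as total RNA for the RNA libraries and as polyA RNA for the footprint libraries, and the RNA kit named by the labels is one that selects polyA RNA, so these molecule labels may be interchanged. The labels name different preparations for each assay, so the assay and the preparation of the library cannot be told apart in any ratio below.

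Both assays detected most of the listed transcripts, and many transcripts had footprints without RNA counts. Of the 19686 transcripts, 14543 (73.9%) had at least 1 count in both assays of the fed cells. Another 3952 (20.1%) had footprints and no RNA count, 10 (0.0508%) had RNA counts and no footprint, and 1181 (5.999%) had neither. The 10 with RNA alone had at most 8 RNA counts each over the 3 libraries. No transcript with appreciable RNA was therefore free of footprints in these tables. Nearly all reads lay on the 10146 transcripts quantified in both assays, which held 93.5% ± 0.636 (SD, n = 3) of the footprint counts and 98.996% ± 0.00816 of the RNA counts.

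The ratio of footprint to RNA varied widely from transcript to transcript and far beyond the spread between libraries. Among the 10146 transcripts quantified in both assays, the log2 ratio of footprint to RNA CPM had a median of −0.20 and an SD across transcripts of 1.31, against a median standard error of 0.13 per transcript. The squared standard errors amounted to 1.30% of the variance across transcripts. The 25th and 75th percentiles were −0.97 and 0.53, a 2.84-fold span, and the 5th and 95th percentiles were −1.96 and 1.73, a 12.96-fold span. The extremes were −4.70 and 8.71. A transcript in the upper part of the middle range thus carried nearly 3 times the footprints per RNA read of one in its lower part.

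The ordering of transcripts was stable from replicate to replicate. Taking 1 footprint and 1 RNA library with the same number at a time, the median log2 ratio was −0.17, −0.24 and −0.19, and the SD across transcripts was 1.26, 1.36 and 1.38. The ratios of the 3 such pairs correlated across transcripts at 0.959 to 0.962, where transcripts are not independent replicates. For 8739 of the 10146 transcripts (86.1%) the ratio lay on the same side of its median in all 3 pairs.

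With edgeR (quasi-likelihood F test, Benjamini-Hochberg adjusted p under 0.05), most transcripts had a footprint share that differed from their RNA share. Over all 13672 tested transcripts, 5755 (42.1%) were called higher in footprints and 5156 (37.7%) lower. Calls with more than a 2-fold ratio numbered 3818 higher (27.9%) and 2799 lower (20.5%). Among the 10146 quantified in both assays, 3228 (31.8%) were higher and 4695 (46.3%) lower, with 1346 (13.3%) over 2-fold higher and 2460 (24.2%) over 2-fold lower. The first set includes transcripts that passed the count filter through footprints alone, which by itself leans them to higher ratios. It also includes some that passed through RNA alone, which leans them to lower ratios. The second set is therefore used below, except for the 4 transcripts named, those without RNA counts, and where another set is given. The 2223 transcripts of the second set that were not called had no detectable difference at this depth.

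The zero point of the ratio is set by the scaling. A ratio of 0 means the same CPM in both assays, and the median transcript lay below it. Of the 7923 calls among transcripts quantified in both assays, 40.7% were higher. Measured from the median transcript instead, 3904 were higher and 4082 lower, so that 48.9% of calls were higher, and the calls over 2-fold numbered 1776 and 1930. With a trend over average abundance taken out, an alternative setting, 3962 were higher and 3711 lower, or 51.6% higher. The direction of a transcript near 0 therefore depends on the reference chosen, while the width of the distribution does not: its SD ranged only from 1.25 to 1.34 over 17 alternatives.

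Across transcripts, RNA level accounted for about as much of the footprint level as it left over. Mean log2 CPM of footprints correlated with that of RNA at Pearson r = 0.691 and Spearman rho = 0.707 over the 10146 transcripts, an r squared of 47.8%. Replicates of the same assay correlated at 0.991 to 0.993 for RNA and 0.980 to 0.982 for footprints, while single footprint libraries correlated with single RNA libraries at 0.666 to 0.716. The slope of footprints on RNA was 0.66. Levels spanned a similar width in both assays, with an SD across transcripts of 1.70 for log2 RNA CPM and 1.62 for log2 footprint CPM. The plot of footprint against RNA level shows a broad diagonal band and, above its left part, thinly scattered transcripts with low RNA and very many footprints. Leaving out the 145 outermost of them, defined below, raised r to 0.772.

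**Figure D1:**
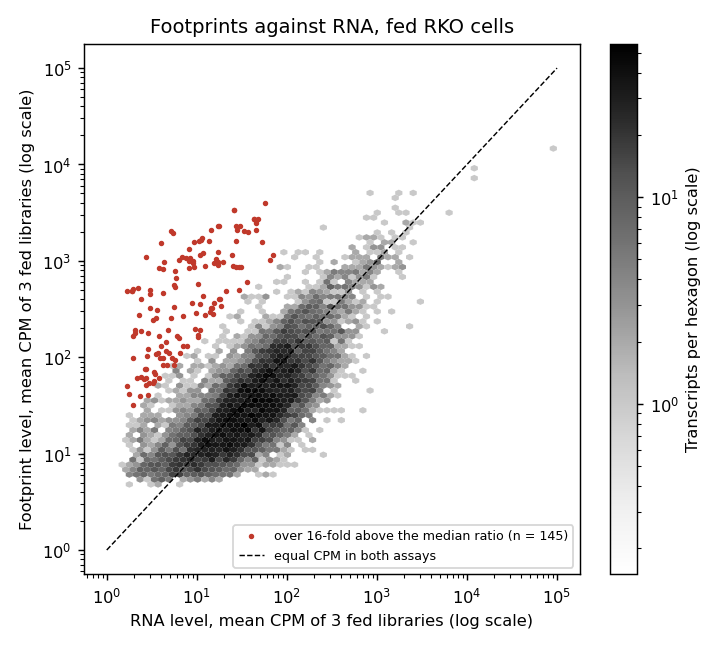
Mean footprint CPM against mean RNA CPM (3 fed libraries each, both axes on a log scale) for the 10146 transcripts quantified in both assays. Shading gives the number of transcripts per hexagon, the dashed line marks equal CPM, and the 145 red points are the transcripts with a ratio over 16-fold above the median, which sit at low RNA levels above the main band.

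Among the transcripts quantified in both assays, the distribution had a long upper tail and a short lower one. The count filter limits both tails. The lowest mean level kept was 4.79 CPM in footprints and 1.48 CPM in RNA, which removes low ratios sooner than high ones. Between 2-fold and 4-fold from the median, 1298 transcripts lay above it and 1620 below. Farther out the upper side held more: 478 lay over 4-fold above and 310 over 4-fold below, 246 against 33 at 8-fold, 145 against 2 at 16-fold, and 97 against 0 at 32-fold. The 33 transcripts between 6 and 7 log2 units above the median and the 35 beyond 7 units were no fewer than the 29 between 5 and 6. The plot of the distribution shows this part as a drawn-out tail.

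**Figure D2:**
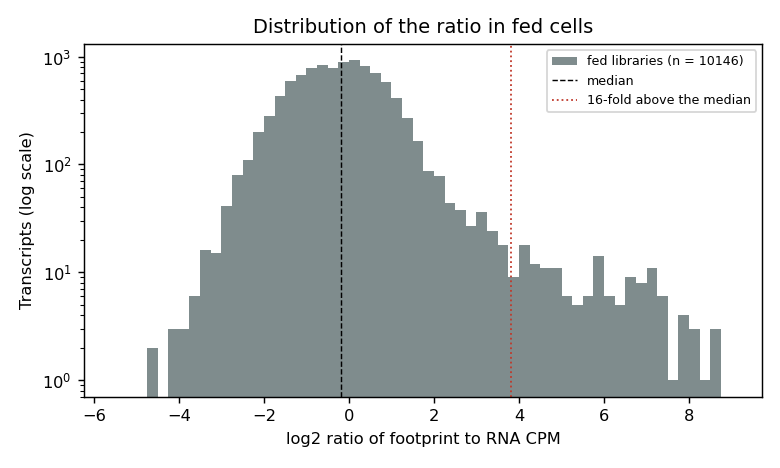
Number of transcripts (log scale) by log2 ratio of footprint to RNA CPM in fed cells, for the 10146 transcripts quantified in both assays. The dashed line marks the median and the dotted line 16-fold above it. To the right of the dotted line lie 145 transcripts in a drawn-out tail, while 2 lie over 16-fold below the median.

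The 145 transcripts over 16-fold above the median combined scarce RNA with abundant footprints. Their median level was 6.86 CPM in RNA and 448 CPM in footprints, where all 10146 had medians of 42.2 and 32.6 CPM. They held 10.2%, 11.4% and 11.9% of the counts in the 3 fed footprint libraries and 0.180%, 0.180% and 0.183% in the RNA libraries. By rank, their median place was 339 among footprints and 9788 in RNA, and 33 of them stood among the 100 transcripts with the most footprints. The ratio chose these transcripts, so their levels are a description. The threshold cuts a continuous range: the transcript just inside it lay 4.01 log2 units above the median and the one just outside 3.98. The next 101 transcripts, 8- to 16-fold above the median, had a median RNA level of 5.997 CPM but only 62.1 CPM in footprints, and held 1.98% of footprint counts.

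At the other end, 310 transcripts lay over 4-fold below the median, and they were well expressed. Their median level was 121 CPM in RNA and 19.8 CPM in footprints. In the 3 fed libraries they held 14.1%, 14.6% and 15.3% of RNA counts and 2.18%, 2.42% and 2.39% of footprint counts. The low ratio chose this set, so the direction of these shares is a description. The transcript with the most RNA is 1 of the 310 and holds most of both shares, although it also ranks first in footprints. Without it, an alternative added after seeing the data, the other 309 held 5.39%, 5.59% and 5.72% of RNA counts and 0.917%, 0.814% and 0.863% of footprint counts.

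Broader sets, again chosen by the ratio, were described the same way. The 1015 transcripts with the highest ratios, 10% of those quantified, held 3.79% ± 0.184 of RNA counts and 23.7% ± 1.37 of footprint counts (SD, n = 3). The 1015 with the lowest held 22.9% ± 0.860 and 4.59% ± 0.0347, and without the leading RNA transcript 13.8% ± 0.452 and 3.13% ± 0.170. Median RNA levels were 10.8 CPM in the high set and 97.8 CPM in the low set, and median footprint levels 61.0 and 22.95 CPM.

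Bins with more RNA had lower median ratios, although the 100 transcripts with the most RNA did not continue this fall. In 5 bins of equal size by mean RNA level, with median RNA of 9.06, 22.8, 42.2, 76.9 and 177 CPM, the median log2 ratio was 0.58, −0.10, −0.38, −0.61 and −0.75. In the lowest bin 1110 transcripts were called higher and 188 lower, and in the highest bin 430 were higher and 1355 lower. The 100 transcripts with the most RNA had a median log2 ratio of −0.14, with 28 called higher and 46 lower. The share of transcripts called in either direction grew from 63.97% to 87.9%, while the median standard error fell from 0.21 to 0.09 log2 units.

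RNA enters both the bin and the ratio, so the bins were set again by fed RNA replicate 1 alone and the ratios taken from replicates 2 and 3. The medians were then 0.61, −0.13, −0.45, −0.64 and −0.77, in the same order. RNA replicates correlated at 0.991 to 0.993, so these bins were nearly the same as before. This form takes out only counting error shared by bin and ratio, and the RNA level itself stays in both. Bins by footprint level ran the other way, with medians of −0.42, −0.51, −0.45, −0.10 and 0.40. With bins by the average of both levels, the medians were 0.18, −0.33, −0.42, −0.48 and −0.05. The median ratio thus fell across RNA bins and was highest in the top footprint bin, as the plot of the ratio by level shows. It had no steady course along the average of the levels. Each level is itself a term of the ratio, so these courses are a description. With the trend over average abundance taken out, the drop from the lowest to the highest RNA bin was 0.78 in place of 1.33 log2 units.

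**Figure D3:**
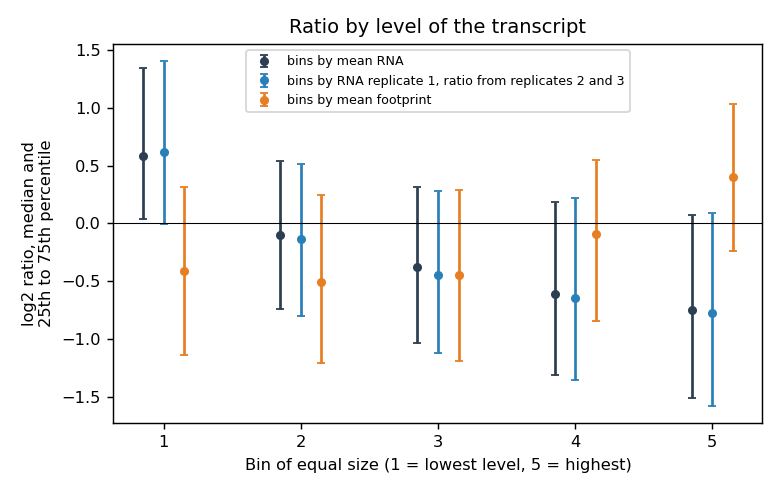
Median log2 ratio (points) and 25th to 75th percentile (bars) in 5 bins of equal size, with bins by mean RNA, by RNA replicate 1 with ratios from replicates 2 and 3, or by mean footprint level. The medians fall from 0.58 to −0.75 along RNA bins and end at 0.40 in the highest footprint bin, and the bars overlap between neighbouring bins.

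The 2 tails lay mostly at opposite ends of the RNA range. Of the 145 transcripts over 16-fold above the median, 107 were in the lowest RNA bin, 25 in the next, 11 in the middle, 2 in the fourth and 0 in the highest. Of the 310 over 4-fold below it, 181 were in the highest bin, 92 in the fourth, 36 in the middle, 1 in the second and 0 in the lowest. Part of this is set by the count filter: no transcript quantified in both had a mean footprint level under 4.79 CPM, so a ratio far below the median could not be seen at low RNA. With bins over the 11214 tested transcripts kept by the RNA filter alone, an alternative added after seeing the data, those over 4-fold below the median numbered 35, 39, 44, 97 and 195 from the lowest to the highest bin. The median ratios of these bins were 0.41, −0.07, −0.33, −0.59 and −0.75, a drop of 1.17 log2 units. Extreme ratios were not limited to a single bin, since 16 transcripts of the highest RNA bin were over 4-fold above the median.

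The single transcripts named here were taken by a rule: a ratio past the adjusted p of 0.05, no overlap between the 3 footprint and the 3 RNA values, and a mean log2 CPM of 5 or more over the 6 libraries, then the 2 highest and the 2 lowest ratios. Of 5223 transcripts that met the conditions, 1962 were higher and 3261 lower in footprints. Without the conditions on level and overlap, 42.1% of all 13672 tested transcripts were called higher and 37.7% lower. Among the 10146 quantified in both assays these shares were 31.8% and 46.3%. The split depends on the zero point of the ratio, so nothing is read from it. The rule used the ratio itself, and all 4 lie outside the set quantified in both assays. The 2 highest passed the count filter through footprints alone, which fixed their direction. The 2 lowest passed the filter over all 6 libraries but missed the one for footprint libraries alone. The ratio chose all 4, so they are described as examples with no test. Their gene names are not given here, and without names a role cannot be stated.

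ENST00000379499 had the highest ratio. Whether its RNA reads were assigned to another transcript in counting was not tested, here and for the next transcript. It had no RNA count in any of the 3 fed RNA libraries and 3503, 2672 and 2140 footprints in the 3 fed footprint libraries, which is 803, 1295 and 1010 CPM. Against a floor of 3 RNA counts over the group, the mean of 1036 ± 247 CPM (SD, n = 3) was at least 6348-fold higher in footprints. The starved libraries, which played no role in its choice, again had no RNA count and 1436, 1046 and 908 CPM of footprints.

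ENST00000615966 was the second highest, and it too had no RNA count. Its footprints were 443, 416 and 478 CPM, from 1932, 858 and 1012 counts, a narrow range around 445 ± 31.1 (SD, n = 3). The bound was at least 2903-fold higher in footprints. In the starved libraries RNA was again at 0, and footprints were 203, 164 and 178 CPM.

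ENST00000378119 had the lowest ratio. Its RNA was at 239, 260.1 and 266 CPM in the fed libraries and its footprints at 6.64, 8.72 and 4.25 CPM. All 3 RNA values stood far above all 3 footprint values, on 4963 RNA counts in all against 56 footprints. The log2 ratio was −5.28 (SE 0.15), or 38.8-fold lower in footprints, and −4.59 in the starved libraries.

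ENST00000296233 was the second lowest. Its RNA was at 167, 158 and 104.95 CPM and its footprints at 4.58, 2.91 and 5.19 CPM, on 2799 and 37 counts in all. The groups did not overlap, although RNA replicate 3 was lower than the others. The log2 ratio was −5.05 (SE 0.23), 33.0-fold lower in footprints. It was −3.31 in the starved libraries fitted alone. In a joint edgeR fit of all 12 libraries the starved minus fed difference was 1.52 (adjusted p = 0.0645).

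The highest ratio among transcripts quantified in both assays belonged to a transcript with 1.88, 4.07 and 2.31 CPM in RNA and 1048, 991 and 1232.5 CPM in footprints. Its log2 ratio was 8.71 (SE 0.17). With at least some RNA in every library, this ratio is a fitted value and no bound. It was singled out after its values were seen.

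RNA counts were more concentrated on single transcripts than footprint counts, and this came mainly from 1 transcript. The 10 most abundant transcripts of each library held 13.9% ± 0.504 of RNA counts and 6.09% ± 0.538 of footprint counts (SD, n = 3 each). These shares did not overlap between assays (exact two-sided permutation p = 0.1, the smallest that 3 libraries against 3 allow, so the design cannot pass 0.05). Without the leading RNA transcript the shares of the top 10 were 5.57% ± 0.104 and 5.05% ± 0.382, a far smaller gap (exact two-sided permutation p = 0.1). They still did not overlap, with RNA libraries at 5.51% to 5.69% and footprint libraries at 4.63% to 5.38%. With the leading transcript included again, the top 100 held 25.5% ± 0.106 of RNA counts and 22.2% ± 0.680 of footprint counts (exact two-sided permutation p = 0.1). Shares of the top 100 without it are not given. At 50% of counts, the leading transcript included, the order was reversed: 792, 799 and 791 transcripts were needed in the RNA libraries and 684, 631 and 652 in the footprint libraries.

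The same transcript led both assays. It took 87242, 90102 and 95550 CPM of RNA, a mean of 9.10% of all RNA counts, and 12590, 16063 and 15296 CPM of footprints, or 1.46%. Although first in footprints, it had 6.20-fold fewer of them than its RNA share (log2 ratio −2.63, SE 0.17, adjusted p = 7.78e-11, edgeR), and its ratio in starved libraries was −1.85. The sixth most abundant RNA, at 2916 ± 76.5 CPM (SD, n = 3), had 375 ± 71.0 CPM of footprints and ranked 412 there, with a log2 ratio of −2.95. Of the 10 transcripts with the most RNA, 7 were called lower and 1 higher, with log2 ratios from −2.95 to 0.93 and a median of −0.68, where 46.3% of all transcripts quantified in both were lower and 31.8% higher.

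The transcripts with the most footprints were a different mixture. Of the 10 leading ones, 7 were called higher and 3 lower, with ratios from −2.63 to 7.03 and a median of 1.30, beside the same 31.8% higher and 46.3% lower over all. Footprints are the numerator of the ratio, so a list chosen by footprint level leans to high ratios by its choice. The sixth had 802 ± 74.8 CPM of RNA and 4835 ± 866 CPM of footprints (SD, n = 3), a log2 ratio of 2.59. The eighth had RNA of 57.1, 46.9 and 66.9 CPM, rank 4047, and footprints of 3114, 4798 and 3897 CPM, a log2 ratio of 6.10 (SE 0.18). A place among the leading footprints was thus held both by transcripts with much RNA and by transcripts with little. Lists of the 10, 100 and 1000 leading transcripts in each assay shared 4, 49 and 537 members, and of the 100 leading in footprints 78 were called higher and 11 lower, against 28 and 46 of the 100 leading in RNA, which is near the shares over all quantified transcripts.

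Footprints without RNA reads lay at the edge of what the tables measure. The 3952 transcripts with footprints and no RNA count in fed cells held 2.20%, 2.66% and 2.58% of the 3 footprint libraries. Most had few counts, but 976 of them had a mean of at least 10 footprints per library, and 975 of these were seen in all 3 footprint libraries. Their median level was 6.99 CPM and the highest was 1036 CPM. Set against a floor of 3 RNA counts over the group, the median lower bound of the 976 ratios was 44.7-fold. Of the 976, 926 were tested and all 926 were called higher, where 42.1% of all tested transcripts were; a transcript with no RNA passes the count filter only through its footprints, so nothing is read from this count.

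The starved libraries, which had no part in that choice, listed 806 of the 976 (82.6%) again with no RNA count, and 939 again had a mean of at least 10 footprints. Footprints without RNA counts were thus seen on most of these transcripts in separate libraries of the same line. At the depth of the RNA libraries a floor of 3 counts over the group is 0.153 CPM, so RNA below that level could have gone uncounted.

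A few transcripts cannot be told apart in these tables. Among the 12051 transcripts with at least 100 footprint counts, 16 had exactly the same counts as a partner in all 12 libraries, which makes 8 pairs. One such pair stood at rank 10 in footprints, with RNA of 27.6, 24.8 and 24.8 CPM, footprints of 3069, 3471 and 3581 CPM and a log2 ratio of 7.03. Of the 145 transcripts over 16-fold above the median, 4 belonged to such pairs. The assignment of shared reads is uncertain for these and for any other near-identical transcripts.

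The ratios measured in fed cells were largely found again in the starved libraries, which were fitted alone. Over 9820 transcripts quantified in both assays and both conditions, the ratios correlated at Pearson r = 0.927 and Spearman rho = 0.911 across transcripts, which are not independent replicates. Among the 5320 transcripts with a mean log2 CPM of 5 or more in the fits of both conditions, r was 0.955. The SD across transcripts was 1.26 in fed and 1.32 in starved cells, and the medians were −0.22 and −0.20. The 982 transcripts with the highest and the 982 with the lowest ratios of each condition shared 693 (70.6%) and 716 (72.9%) members between conditions.

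**Figure D4:**
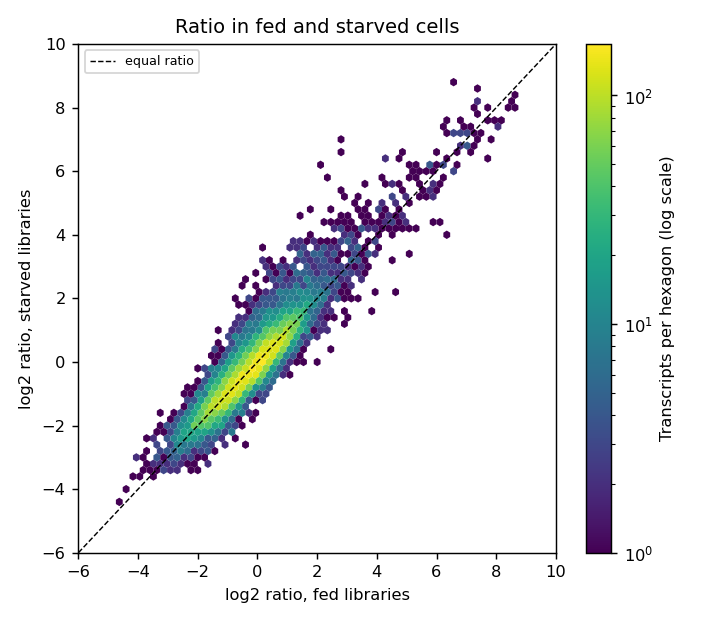
Log2 ratio of footprint to RNA CPM in starved libraries against that in fed libraries, for the transcripts quantified in both assays in fed cells and tested in starved cells. Colour gives the number of transcripts per hexagon on a log scale and the dashed line marks equal ratios; the points follow that line over the whole range, upper tail included.

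Directions were kept for nearly all strong ratios among the 9820 transcripts quantified in both assays and both conditions. These held 1203 of the 1346 transcripts called over 2-fold higher in fed cells and 2439 of the 2460 called over 2-fold lower. Of the 1203, 1200 were above 0 in starved cells and 1190 were called higher there, where 3121 of all 9820 were. Of the 2439, 2424 were below 0 there and 2356 were called lower, where 4417 of all 9820 were.

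Both outer sets chosen in fed cells kept their character in starved cells. Of the 145 in the upper tail, 144 could be tested there, all 144 were above 0, and 134 were over 16-fold above the starved median; their median log2 ratio was 5.78, against 5.65 in fed cells. All 310 in the lower set were below 0 in starved cells, with a median of −2.33, against −2.52 in fed cells. In the 3 starved footprint libraries the upper set held 8.07%, 6.69% and 6.87% of counts and the lower set, the leading RNA transcript included, 4.03%, 3.47% and 3.25%. The plot of shares by library places these values beside the fed ones. The sets were chosen on fed values, so nothing on starvation is read from the difference.

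**Figure D5:**
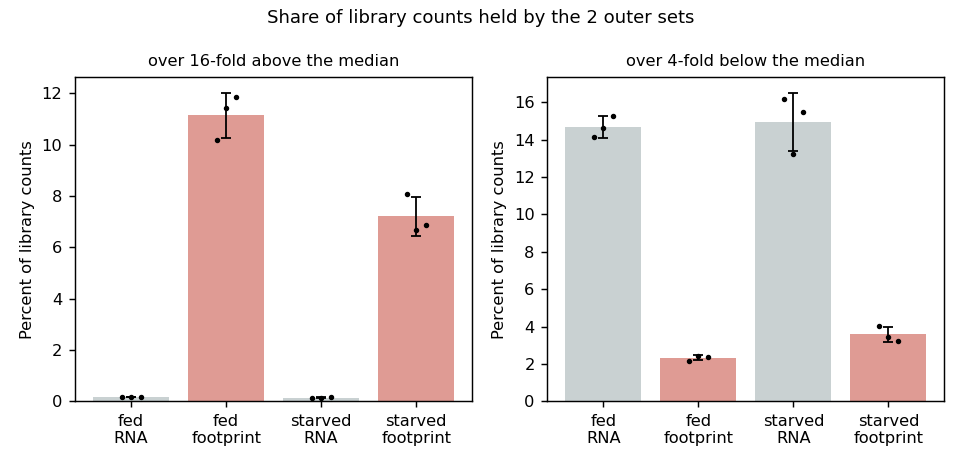
Percent of library counts held by the 145 transcripts over 16-fold above the median ratio (left) and by the 310 over 4-fold below it (right), in fed and starved libraries of each assay. Bars start at 0 and give the mean, error bars the SD over 3 libraries and points the single libraries; in both conditions the left set is large in footprints and near 0 in RNA, and the right set the reverse.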

How the data were processed

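RNA-seq and ribosome profiling of fed RKO cells were compared in 3 libraries per assay. For each assay the authors deposited 1 table of raw counts, whole numbers for each Ensembl transcript. Per the labels' protocols, RNA libraries were made with a TruSeq RNA kit, and footprint samples were depleted of ribosomal RNA with RiboCop. Per the submitters' processing notes, the tools included STAR, cutadapt, DESeq2 and UMI-tools, with build GRCh38.p13. Not given in the sources used here are the counting tool, how reads with several matches were handled, and whether counting was limited to coding sequence. If it was not, reads in untranslated regions enter the ratio, and translating ribosomes need not cover these regions as RNA reads do.

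The assay term was tested on the fed counts by a two-sided quasi-likelihood F test (R 4.3.3, edgeR 4.0.16), at a Benjamini-Hochberg adjusted p under 0.05. TMM factors were computed within each assay, and transcripts were kept by filterByExpr (a minimum count of 10 and a total of 15). "Quantified in both" means kept by that filter in each assay alone. Printed CPM are counts over library totals. A count of 0 is set to a floor of 3 counts over the group, 0.153 CPM for RNA, which covers counting error only. Depth sets precision: the median quantified transcript had 276 RNA counts and 94.0 footprint counts in a library, with a biological coefficient of variation of 6.11% and 9.53%. No replicates held identical values, and chi-square per degree of freedom between fed replicates lay between 2.07 and 5.00. The test was tried on simulated counts with known changes.

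The transcripts named were chosen by a rule for identifiers without gene names: the 2 highest and 2 lowest ratios at adjusted p under 0.05, an average log2 CPM of at least 5 and no overlap between assays. The members and lists were chosen with earlier results of these data known. The 26 gene lists and the marker lists could not be matched to the identifiers. Alternatives were other scalings, filters and tests, the replicate number as a block, and leaving out each library. Bins over transcripts kept by the RNA filter alone and shares without the leading RNA transcript were added after seeing the data.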

Additional observations from a re-analysis of the deposited data

Results flagged for a closer look

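The footprint table also lists transcripts that are not in the RNA table and enter no ratio. They held 0.0653% ± 0.00573 (SD, n = 3) of the fed footprint counts, with 0.0595%, 0.0710% and 0.0655% in the single libraries.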

How the results depend on the processing

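Recomputed under alternatives other than leaving out a library, 109 values of the main results kept their direction, their call and their size within the limits set, and the 7 given below did not. All 66 values without 1 library kept theirs. The filter on low counts moved the calls most. Without it, 18505 transcripts were tested, 9458 were called higher and 7514 more than 2-fold higher, since more transcripts with footprints alone entered; 64.5% of calls were then higher, against 52.7%. With a mean of at least 20 counts in each assay, 9754 were tested, 3060 called higher and 1171 more than 2-fold higher, and 39.8% of calls were higher. With the abundance trend removed, 1522 transcripts quantified in both assays were over 2-fold lower, and the lowest minus the highest RNA bin was 0.78. At an average log2 CPM of at least 5 the fed and starved ratios correlated at 0.955. The replicate block gave 5779 higher and 5192 lower calls; deviations of libraries with the same number correlated at −0.0212, 0.0249 and −0.0435, so the numbers were not taken as pairs. Ratios of the 4 named transcripts kept their direction and their call in the 16 alternatives that tested them, with adjusted p of at most 5.24e-09 (edgeR, limma-voom or DESeq2); a mean of at least 20 counts in each assay removed all 4. Footprint depth limits the lower tail.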
